A study of Mus musculus with 64 samples.

Results

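Omental adipose tissue of young wild-type mice was compared with the liver and skeletal muscle of mice of the same genotype and age. The comparison was drawn from the labels alone: 6 libraries of omental adipose tissue against 6 of liver and 6 of skeletal muscle, which are 18 of the 64 libraries of the series. All 18 came from C57/B6 mice labelled WT at 5 months of age. Per the labels, every mouse of the series, WT included, had 5 daily intraperitoneal injections of tamoxifen at 75 mg/kg in corn oil, begun at weaning once it weighed at least 15 g. In the other genotype this treatment switched on a CreER recombinase that removed Myc; the WT group is the arm in which Myc was kept. Polyadenylated RNA was sequenced with a strand-marking kit. The RNA of adipose tissue and muscle was extracted with a kit for lipid-rich tissue and that of liver with another kit, so kit and tissue cannot be told apart between adipose tissue and liver. The labels give each library a number and do not state whether the libraries of a tissue came from separate mice. If they did not, p-values measure only the spread between these samples, which may be technical.

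White adipose tissue stores energy as triglyceride in the single large droplet of each adipocyte. Lipoprotein lipase and fatty acid carriers bring fatty acids in, acyltransferases esterify them onto glycerol, coat proteins guard the droplet, and hormone-sensitive lipases release fatty acids when catecholamines act on beta adrenergic receptors. The adipocyte is also a secretory cell that releases leptin, adiponectin, resistin and complement factor D. Omental fat lies in the abdominal cavity, is covered by mesothelium and holds fibroblastic progenitors, vessels, macrophages and lymphoid aggregates, so its RNA is that of a mixed tissue. In bulk RNA, a change in the number of cells of a type and a change in RNA per cell cannot be told apart.

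The adipose libraries held 15890000 to 19030000 reads on genes, the liver libraries 17080000 to 21100000 and the muscle libraries 15450000 to 19440000. Values were rescaled to CPM, reads per 1000000 reads on genes of that library, and 14168 genes above 1 CPM in at least 6 of the 18 libraries were tested with limma on log2(CPM + 1). A log2 value below is a difference, adipose tissue minus the mean of liver and muscle, unless another pair is named. Such a difference can come from liver alone or from muscle alone, and a gene below the mean can be above the other tissue. The scale had a large effect on its sign. Adipose libraries detected 19290 to 20830 genes against 16080 to 16810 in liver and 17020 to 18040 in muscle, and their 10 most abundant genes took 9.3% to 13.6% of reads against 16.3% to 21.3% and 17.8% to 22.9%. With scaling to total reads, the median gene was 0.91 higher in adipose tissue on the log2 scale. With TMM scaling, which sets the scale by a trimmed mean of the gene ratios, the median gene was at -0.08. The part of library composition in this shift was not tested. At a Benjamini-Hochberg adjusted p under 0.05, 10008 of 14168 genes (70.6%) were higher and 1894 (13.4%) lower by total reads, whereas 4619 (32.6%) were higher and 5362 (37.8%) lower by TMM. All 4619 were among the 10008, and all 1894 among the 5362. A total of 1590 genes were called higher by total reads and lower by TMM. Each named gene below is therefore given on both scales, the total-read value first. A gene low in liver and muscle could pass the filter through the 6 adipose libraries alone and was then bound to be higher there, so counts over the tested members of a list are descriptions. Counts against the mean are to be set beside the shares of all genes given above. Genes named without a value, to identify a count of 5 or fewer, were picked after their values were seen.

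Some libraries stood apart from their group. Adipose libraries W5F5041 and W5F5042, and the liver and muscle libraries of the same number, carried Xist, the RNA of the inactive X chromosome of females, and the other 4 of each tissue did not. Epididymis and male tract markers summed to 1847 CPM in adipose library W5F5299, to 122 CPM in muscle library W5S5299 and to 0.315 to 1.78 CPM in the other 5 adipose libraries. Skeletal myofibre markers summed to 44.9 to 2113 CPM in adipose tissue, highest in library W5F5277, against 194800 to 244100 CPM in muscle. The calls were therefore repeated without these libraries; for the counts within gene lists these alternatives were chosen after seeing the data. Without the Xist libraries of all tissues 1454 genes were adipose-high as defined next, and without adipose library W5F5299 they were 1413.

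Genes called adipose-high were higher than in liver and higher than in muscle, each at an adjusted p under 0.05 and by at least 2 on the log2 scale. There were 1429 of them (10.1%) by total reads and 454 (3.2%) by TMM, and all of the 454 were among the 1429. In 1377 of the 1429, each of the 6 adipose libraries lay above all 12 others. Adipose-low genes, defined the same way in the other direction, numbered 39 (0.275%) by total reads and 110 (0.776%) by TMM, and the 39 were among the 110. In 35 of the 39, each adipose library lay below all 12 others. Both counts of separated genes describe genes selected for a large difference in these same libraries. The share of all tested genes that were separated in this way was not counted.

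The 10 adipose-high genes with the largest difference, among those whose groups did not overlap and whose adipose mean was at least 20 CPM, were mostly adipokines and genes of droplet storage and its hormonal control. Levels are given as the lowest, median and highest of the 6 libraries of a tissue. Cfd, the serine protease complement factor D (adipsin), had 8770, 12740 and 16050 CPM in adipose tissue and 7.12, 62.2 and 119.6 CPM in muscle, while 5 liver libraries had no read and the sixth had 1. Its difference was 10.8 (SE 0.38, limma adjusted p = 1.22e-14) by total reads and 9.93 by TMM. Every adipose library was far above every liver and muscle library. Adipoq, which encodes adiponectin, had 2410, 2873 and 4348 CPM in adipose tissue, 0 to 0.0972 CPM in liver and 1.17, 10.1 and 15.1 CPM in muscle. The difference was 9.96 (SE 0.29, limma adjusted p = 1.57e-15) and 9.1 by TMM. The muscle library W5S5041 lay well below the other 5, at 1.17 CPM. Retn, which encodes resistin, had 895, 1586 and 1873 CPM in adipose tissue, no read in any liver library and 0.324 to 5.21 CPM in muscle, a difference of 9.7 (TMM 8.88). Against a floor of 3 reads over the 6 liver libraries, 0.0261 CPM, the mean adipose level of Retn was at least 58300-fold higher. Lep, which encodes leptin, the hormone that reports fat stores to the brain, had 30.3, 445 and 1244 CPM in adipose tissue, no read in liver and 0 to 1.61 CPM in muscle. Its mean was at least 20200-fold higher than the same liver floor, and its difference was 7.7 (SE 0.61, limma adjusted p = 6.64e-10; TMM 6.93). The adipose libraries themselves spread widely for Lep, and the groups did not overlap, which was a condition for these leading genes. Without the adipose libraries, Lep and Retn, and Plin1 and Prkar2b given next, would not have met the expression filter. For these genes a higher level in adipose tissue partly followed from the filter, and the p-value of Lep is a description.

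Storage and hormone-response genes made up the rest of these leading genes. Fabp4, the adipocyte fatty acid binding protein, had 9529, 12270 and 25330 CPM in adipose tissue, 6.86, 9.19 and 12 CPM in liver and 152, 308 and 316 CPM in muscle (8.02, SE 0.2, limma adjusted p = 4.7e-16; TMM 6.93). Plin1, the coat protein that gates lipase access to the adipocyte droplet, had 273, 989 and 1364 CPM in adipose tissue against 0 to 0.0585 CPM in liver and 0.13 to 4.73 CPM in muscle (8.64; TMM 7.82). Both genes were thus separated by tissue in every library, and in both muscle was closer to adipose tissue than liver was. Adrb3, the beta-3 adrenergic receptor, had 223, 671 and 1880 CPM in adipose tissue and at most 2.96 CPM in liver and 4.73 CPM in muscle (7.98; TMM 7.01). Prkar2b, a regulatory subunit of protein kinase A downstream of that receptor, had 224, 475 and 660.5 CPM (8.07; TMM 7.2). Aoc3, an amine oxidase of the adipocyte surface, had 225, 763 and 1967 CPM and was above muscle, where it had 6.14, 8.96 and 11.1 CPM (7.86; TMM 6.99). Sncg, gamma-synuclein, had 316, 865 and 1816 CPM in adipose tissue, at most 0.208 CPM in liver and 2.07 to 5.03 CPM in muscle (8.35; TMM 7.48).

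**Figure D1:**
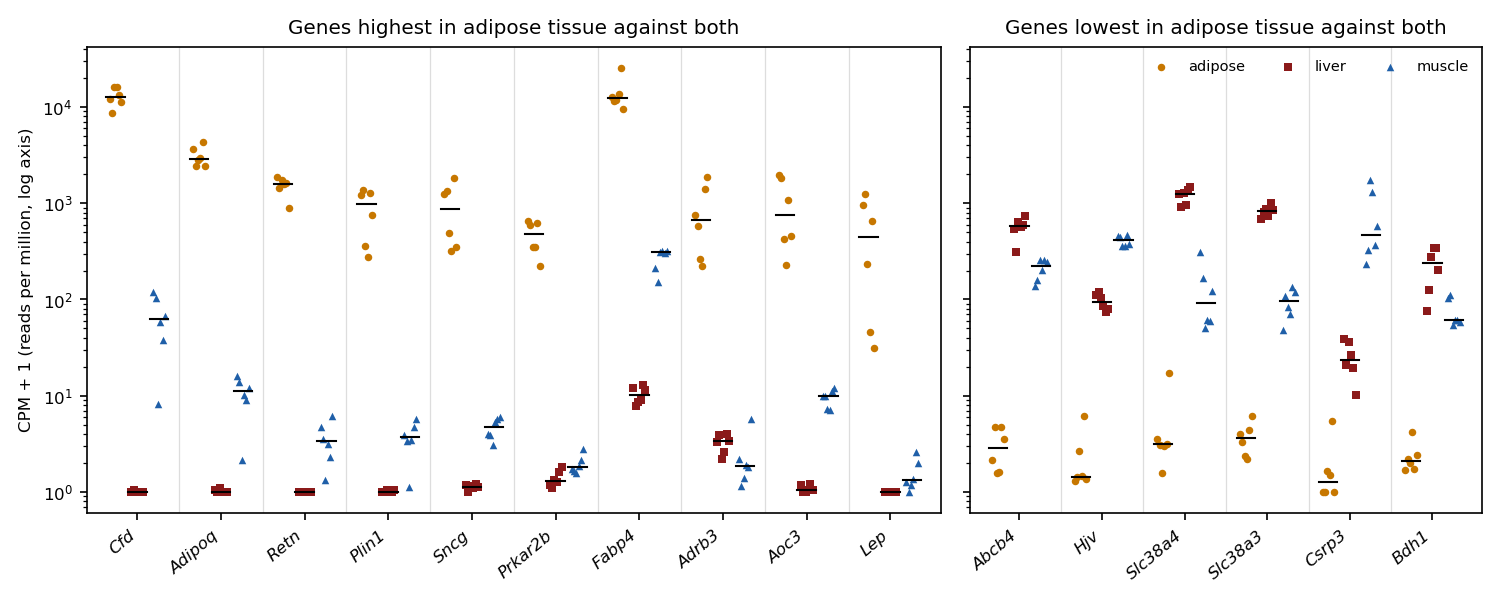
Levels of the 10 leading adipose-high genes and the 6 leading adipose-low genes in each of the 18 libraries, as CPM + 1 on a log axis; points are libraries, bars are medians of 6. The adipose points lie above all liver and muscle points for each adipose-high gene (Cfd at 8770 to 16050 CPM) and below both for each adipose-low gene (Abcb4 at 0.578 to 3.71 CPM).

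The 250 bases before the annotated start of Adipoq and Plin1 are shown because these genes mark the adipocyte in the results, one as a secreted product and one as the droplet coat; the table of promoters used here had no entry for Fabp4. Sequences are from RefSeq on build GRCm38.p6, 5′ to 3′ on the strand of the gene. Capitals mark matches, on either strand, to CCAAT in Adipoq and to TTGCNNAA in Plin1.
Adipoq, chr16:23146286-23146535, plus strand: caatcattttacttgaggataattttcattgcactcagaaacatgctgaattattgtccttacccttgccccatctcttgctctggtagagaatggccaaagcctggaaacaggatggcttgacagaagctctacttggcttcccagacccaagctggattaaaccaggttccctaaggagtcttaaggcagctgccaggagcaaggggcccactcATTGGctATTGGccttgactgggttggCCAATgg
Plin1, chr7:79732777-79733026, minus strand: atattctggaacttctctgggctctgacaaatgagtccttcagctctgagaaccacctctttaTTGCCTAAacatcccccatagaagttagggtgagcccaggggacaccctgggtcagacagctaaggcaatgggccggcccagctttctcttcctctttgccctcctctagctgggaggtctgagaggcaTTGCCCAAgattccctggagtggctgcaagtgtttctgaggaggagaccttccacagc
CCAAT, the core of the box bound by NF-Y, was found 3 times in the Adipoq window, with the nearest match 7 to 3 bases before the start. TTGCNNAA, the core of the element bound by C/EBP factors, was found in Plin1 at 187 to 180 and at 58 to 51 bases before the start. Among the windows matched by symbol, TTGCNNAA was present in 9.55% of all 27025, 7.94% of the 11241 of tested genes, 10.9% of the 1088 of adipose-high genes by total reads and 12.3% of the 342 by TMM. CCAAT was present in 34.5%, 36.1%, 32.6% and 28.4% of the same sets, and TATAAA in 13%, 7.09%, 8.82% and 10.2%. A motif of 2 direct AGGTCA copies spaced by 1 base, the full-length element of the PPAR and RXR pair, was present in 10 of all 27025 windows and in none of the 1088 adipose-high ones. Each motif was searched on both strands, without mismatch, and none contains another. A match is a description of the letters in these windows and no evidence of binding.

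The transcription factors that direct adipocyte differentiation were split. Of 24 tested, 15 were higher and 5 lower by total reads (62.5% and 20.8%, against 70.6% and 13.4% of all genes), and 12 were higher and 8 lower by TMM (50% and 33.3%, against 32.6% and 37.8%). Pparg, the nuclear receptor that acts as the master regulator of the adipocyte, had 92, 153 and 229.8 CPM in adipose tissue, 3.75, 5.73 and 12.4 CPM in liver and 3.19, 5.49 and 9.06 CPM in muscle (4.43; TMM 3.37). Ebf1 and Ebf2, early B-cell factors that act in the adipocyte lineage, differed by 4.76 and 3.96 (TMM 3.89 and 3.14); Ebf2 had 23.6, 38.1 and 69.9 CPM in adipose tissue and no read in liver. For these 3 factors every adipose library was above the other 12. Rxrg, a retinoid X receptor, was lower on both scales (-1.26; TMM -2.11), with 0.342, 7.71 and 21.9 CPM in adipose tissue against 22.2, 30.1 and 41.5 CPM in muscle. Sox9, a factor of progenitors and cartilage, was also lower (-1.34; TMM -2.16). Only 2 adipose libraries for Rxrg and 3 for Sox9 lay below all 12 others, so the groups overlapped. Without the Xist libraries both calls were lost, with Rxrg at -0.27 (limma adjusted p = 0.421) and Sox9 at -0.59 (limma adjusted p = 0.209). The Rxrg call was also lost without W5F5041 alone (-0.92, limma adjusted p = 0.058) or W5F5042 alone (-0.82, limma adjusted p = 0.0596). Klf15, Rxra and Stat5b were the other factors lower by total reads.

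Among the PPAR receptors the family divided by tissue. Ppara, the receptor that drives fatty acid oxidation, had 5.2, 7.56 and 16.9 CPM in adipose tissue, 146, 193 and 366 CPM in liver and 17.4, 25.4 and 63.4 CPM in muscle, and was lower (-3.15; TMM -4.16). Ppard differed by 0.75 by total reads and by -0.32 by TMM, a reversed sign. Pparg was thus the member of the family that was higher in adipose tissue on both scales.

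Secreted adipose proteins were nearly all higher: 21 of 22 tested (95.5%) by total reads, with 0 lower, and 18 (81.8%) by TMM, with 1 lower (Nampt). Against a background of 10.1% and 3.2%, 9 (40.9%) and 6 (27.3%) of them were adipose-high. Their median difference was 2.65 by total reads and 1.82 by TMM. Summed over the list, levels were 17590 to 24800 CPM in adipose tissue, 5473 to 8717 CPM in the liver libraries and 480.0 to 808 CPM in those of muscle. Itln1, omentin, had no read in any of the 6 adipose libraries.

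Complement genes were more often higher in liver than in fat: by TMM, 8 of 30 were higher and 19 lower than in liver, and 16 were higher and 1 lower than in muscle. Of all 14168 genes, 4829 were higher and 5148 lower than in liver, and 5178 were higher and 4646 lower than in muscle. Against the mean of both, 18 complement genes were higher and 12 lower by total reads (60% and 40%, against 70.6% and 13.4% of all genes), and 14 were higher and 12 lower by TMM (46.7% and 40%, against 32.6% and 37.8%). Cfd was the extreme on one side. On the other, Hc (complement C5) had 0.115, 0.787 and 1.2 CPM in adipose tissue against 372, 736 and 999.8 CPM in liver (-4.02; TMM -4.51), and C8a, a component of the membrane attack complex, differed by -3.84 (TMM -4.2). C5ar1, the receptor for the C5a peptide that is carried by myeloid cells, had 40.6, 50.2 and 79.4 CPM in adipose tissue and was higher by 3.95 (TMM 2.96), so the gene for the receptor and that for its precursor ligand were high in different tissues. Summed complement levels were 17220 to 30610 CPM in adipose tissue, 15460 to 21230 CPM in the liver libraries and 281 to 990.5 CPM in those of muscle.

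Genes of fatty acid uptake and triglyceride synthesis were often adipose-high, 10 of 22 by total reads (45.5%) and 7 by TMM (31.8%). Of the 22, 16 were higher and 1 lower by total reads (median 3.04), a share of 72.7% that is near that of all genes. By TMM 13 (59.1%) were higher and 3 lower, among them Gpd1 and Scarb1 (median 1.94). Lpl, the lipase that frees fatty acids from circulating lipoproteins, had 4977, 8665 and 9382 CPM in adipose tissue, 5.97 to 36.9 CPM in liver and 562, 871 and 1129 CPM in muscle (6.17; TMM 5.08). Cav1, the structural protein of caveolae, had 597, 1551 and 2696 CPM (5.97; TMM 4.93). For both genes every adipose library was above all 12 others. Gpd1, which makes the glycerol 3-phosphate backbone of triglyceride, was the gene lower by total reads: 35.4, 299.5 and 738 CPM in adipose tissue against medians of 516 CPM in liver and 482 CPM in muscle (-1.35, limma adjusted p = 0.0234; TMM -2.46). Without the Xist libraries, the Gpd1 difference was -0.19 with a limma adjusted p of 0.633. Without W5F5041 or W5F5042 alone it was -0.89 and -0.87 (limma adjusted p = 0.0941 and 0.0947).

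The final acylation step is shared by 2 unrelated enzymes. Dgat1 had 196, 303 and 421 CPM in adipose tissue and was higher by 3.9 (TMM 2.8). Dgat2 had 21, 226 and 1347 CPM in adipose tissue, 292, 342 and 442 CPM in liver and 35, 67.5 and 124 CPM in muscle, a difference of 0.09 (limma adjusted p = 0.908; TMM -1.01, limma adjusted p = 0.184), and it overlapped both tissues. Without the Xist libraries the Dgat2 difference was 1.43 (limma adjusted p = 0.0433). Of the lipins, the phosphatases that make diacylglycerol, Lpin1 did not pass (0.51, limma adjusted p = 0.507), Lpin2 was lower (-1.79; TMM -2.84), and Lpin3 was at 0.74 by total reads and -0.23 by TMM.

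The droplet coat was made of different genes in different tissues. Of 15 coat genes, 11 were higher and 4 lower by total reads (73.3% and 26.7%, against 70.6% and 13.4% of all genes), and 7 were higher and 5 lower by TMM (46.7% and 33.3%, against 32.6% and 37.8%). Cidec, which enlarges droplets by fusion, had 2954, 5261 and 9769 CPM in adipose tissue, 89.2 CPM in liver and 24.6 CPM in muscle as medians (7.44; TMM 6.34). Its relative Cideb, which acts in hepatocytes, was lower (-3.46; TMM -3.88) and was not called by edgeR (-2.53, adjusted p = 0.922). Cidea, the form of brown fat, was at 1.17 by total reads and 0.58 by TMM (limma adjusted p = 0.0757). Among perilipins, Plin1 and Plin4 (4.4; TMM 3.3) were higher in adipose tissue. Plin5, the perilipin of oxidative tissue, had 5.27, 14.9 and 24.1 CPM in adipose tissue, 76.2, 263 and 511 CPM in liver and 42.6, 58.4 and 69.1 CPM in muscle (-3.19; TMM -4.22), with no overlap between adipose tissue and either of the others. Plin2 was at 1.58 (TMM 0.47), and Plin3 reversed sign, 0.54 by total reads and -0.56 by TMM. Pnpla3, a lipid remodelling protein of the droplet, had 9.56, 92 and 469 CPM in adipose tissue (5.09; TMM 4.26). Fitm1, which promotes droplet formation in muscle, and Hsd17b13, a droplet protein of hepatocytes, were lower (-4.92 and -4.18; TMM -5.44 and -4.56).

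Lipolysis genes were higher in 16 of 18 and lower in 1 by total reads (88.9% and 5.56%, median 2.83, against 70.6% and 13.4% of all genes), and higher in 14 and lower in 2 by TMM (77.8% and 11.1%, median 1.75, against 32.6% and 37.8%). Lipe, hormone-sensitive lipase, had 1275, 1994 and 2759 CPM in adipose tissue, 13.1 to 21.7 CPM in liver and 33.8 to 58.1 CPM in muscle (6.0; TMM 4.9). Gnas, the G protein subunit that couples these receptors, was the second gene lower by TMM. The glycerol channels also divided. Aqp7, the channel through which adipocytes release glycerol, was higher (5.23; TMM 4.38), and Aqp9, through which hepatocytes take it up, had 0.854, 1.85 and 19 CPM in adipose tissue against 256 to 478 CPM in liver (-2.51; TMM -3.25). Of the 18 genes, 10 (55.6%) were adipose-high by total reads and 7 (38.9%) by TMM, against 10.1% and 3.2% of all genes.

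Fatty acid synthesis genes were split when set against liver, the other lipogenic tissue. By TMM, 5 of 15 were higher and 8 lower than in liver, and 12 were higher and 2 lower than in muscle. The share higher than in liver is near that of all genes, 4829 of 14168, of which 5148 were lower. Against muscle, 5178 of all genes were higher and 4646 lower. Against the mean of both, 11 synthesis genes were higher and 1 lower by total reads (73.3% and 6.67%, near the 70.6% of all genes that were higher), and 8 were higher and 5 lower by TMM (53.3% and 33.3%, against 32.6% and 37.8%), the 5 being Acacb, Acss2, Elovl5, Fads2 and Me1. Scd1, the desaturase that makes oleate, had 12050, 24330 and 43400 CPM in adipose tissue, 417, 1894 and 6739 CPM in liver and 24, 62 and 94.1 CPM in muscle (6.24; TMM 5.12). Fasn, fatty acid synthase, had 318, 599.7 and 4286 CPM in adipose tissue, 73.8, 126 and 185 CPM in liver and 5.76, 13.2 and 21.3 CPM in muscle (4.51; TMM 3.41). Neither gene overlapped liver, and both varied several-fold among the adipose libraries. Thrsp, the Spot 14 protein of lipogenic tissue, differed by 4.44 (TMM 3.36), and Fads2, the delta-6 desaturase, was lower (-0.73; TMM -1.72). The Fads2 call was lost without the Xist libraries (-0.59, limma adjusted p = 0.123) and with a pseudocount of 0.1 (-0.47, limma adjusted p = 0.127). Acaca, the form that feeds synthesis, was higher (3.39; TMM 2.29). Acacb, the form at the mitochondrion that restrains oxidation, was at 0.0001 by total reads (limma adjusted p = 0.9999) and at -1.11 by TMM (limma adjusted p = 0.0202).

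**Figure D2:**
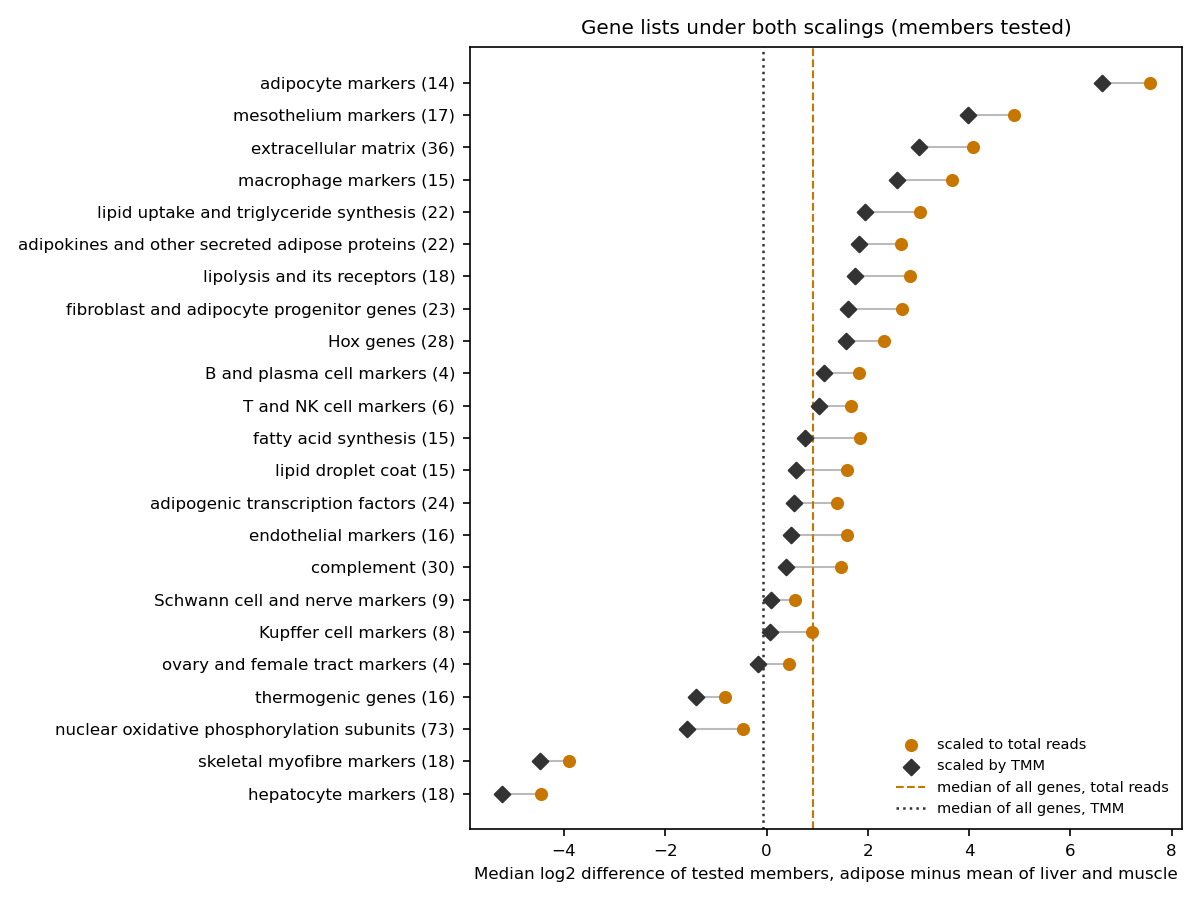
Median log2 difference of the tested members of each gene list, adipose tissue minus the mean of liver and muscle; circles are scaled to total reads, diamonds by TMM, and the dashed and dotted lines mark the median of all 14168 genes on each scale (0.91 and -0.08). The adipocyte markers lie at 7.57 and 6.64, the extracellular matrix at 4.09 and 3.0, and the oxidative phosphorylation subunits at -0.46 and -1.57.

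Isoform families of transport and glycolysis were divided between the 3 tissues. Of the fatty acid binding proteins, Fabp4 and Fabp5 (4.68; TMM 3.63) were higher in adipose tissue. Fabp1, the liver form, had 803, 1957 and 2719 CPM in liver and 0 to 4.34 CPM in adipose tissue (-4.59; TMM -5.12). Fabp3, the heart and muscle form, had 375, 529 and 664 CPM in muscle and 0.263, 2.06 and 6.84 CPM in adipose tissue (-3.03; TMM -3.55). Fabp4, Fabp1 and Fabp3 were thus each highest in a different tissue, and for Fabp1 and Fabp3 the adipose libraries did not overlap the highest tissue.

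Glucose transporters were divided between the tissues as well. Slc2a4, the insulin-regulated GLUT4, had 46.7, 114 and 187 CPM in adipose tissue, 0 to 0.194 CPM in liver and 509, 691 and 807 CPM in muscle. It lay between the other tissues with no overlap, and its difference from their mean was 1.88 (TMM 1.01), made of 6.53 against liver and -2.76 against muscle. Slc2a2, the hepatic GLUT2, was lower (-2.79; TMM -3.2), and Slc2a3, GLUT3, was higher (2.62; TMM 1.7). Slc2a1, the widespread GLUT1, did not pass by total reads (0.07, limma adjusted p = 0.835) and was lower by TMM (-0.98, limma adjusted p = 0.00829). Slc2a8 was called higher by total reads at 1.02 and was at -0.05 by TMM. Slc2a12, GLUT12, was at 1.09 (TMM 0.36), and Slc2a5, the fructose transporter, was lower (-0.45; TMM -0.9). The Slc2a5 call was lost with a pseudocount of 0.1 (-0.32, limma adjusted p = 0.503), with DESeq2 and edgeR (both adjusted p = 0.6), and without adipose library W5F5006 (-0.37, limma adjusted p = 0.0625) or W5F5277 (-0.31, limma adjusted p = 0.0773).

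The glycolytic enzymes were divided in a like way. Hexokinases Hk1 (2.41; TMM 1.37) and Hk3 (2.8; TMM 1.92) were higher in adipose tissue. Hk2 was at 1.27 (TMM 0.29) and was highest in muscle, with means of 65.6 CPM in adipose tissue, 1.07 CPM in liver and 429 CPM in muscle. Phosphofructokinases Pfkl and Pfkp were higher (2.11 and 3.54; TMM 1.03 and 2.5) and the muscle form Pfkm lower (-3.26; TMM -4.32). Pfkm had means of 28.4 CPM in adipose tissue, 14.8 CPM in liver and 4373 CPM in muscle. Pklr, the pyruvate kinase of liver and red cells, was lower (-2.35; TMM -2.79) and did not pass with edgeR (adjusted p = 0.281) or DESeq2 (adjusted p = 0.161). Pkm was at 0.48 by total reads and -0.62 by TMM. Aldoa, an aldolase, was at -0.26 by total reads (limma adjusted p = 0.128) and -1.37 by TMM. Both Pkm and Aldoa were highest in muscle. Means in adipose tissue, liver and muscle were 394, 17.5 and 4088 CPM for Pkm and 1463, 169.5 and 17730 CPM for Aldoa.

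**Figure D3:**
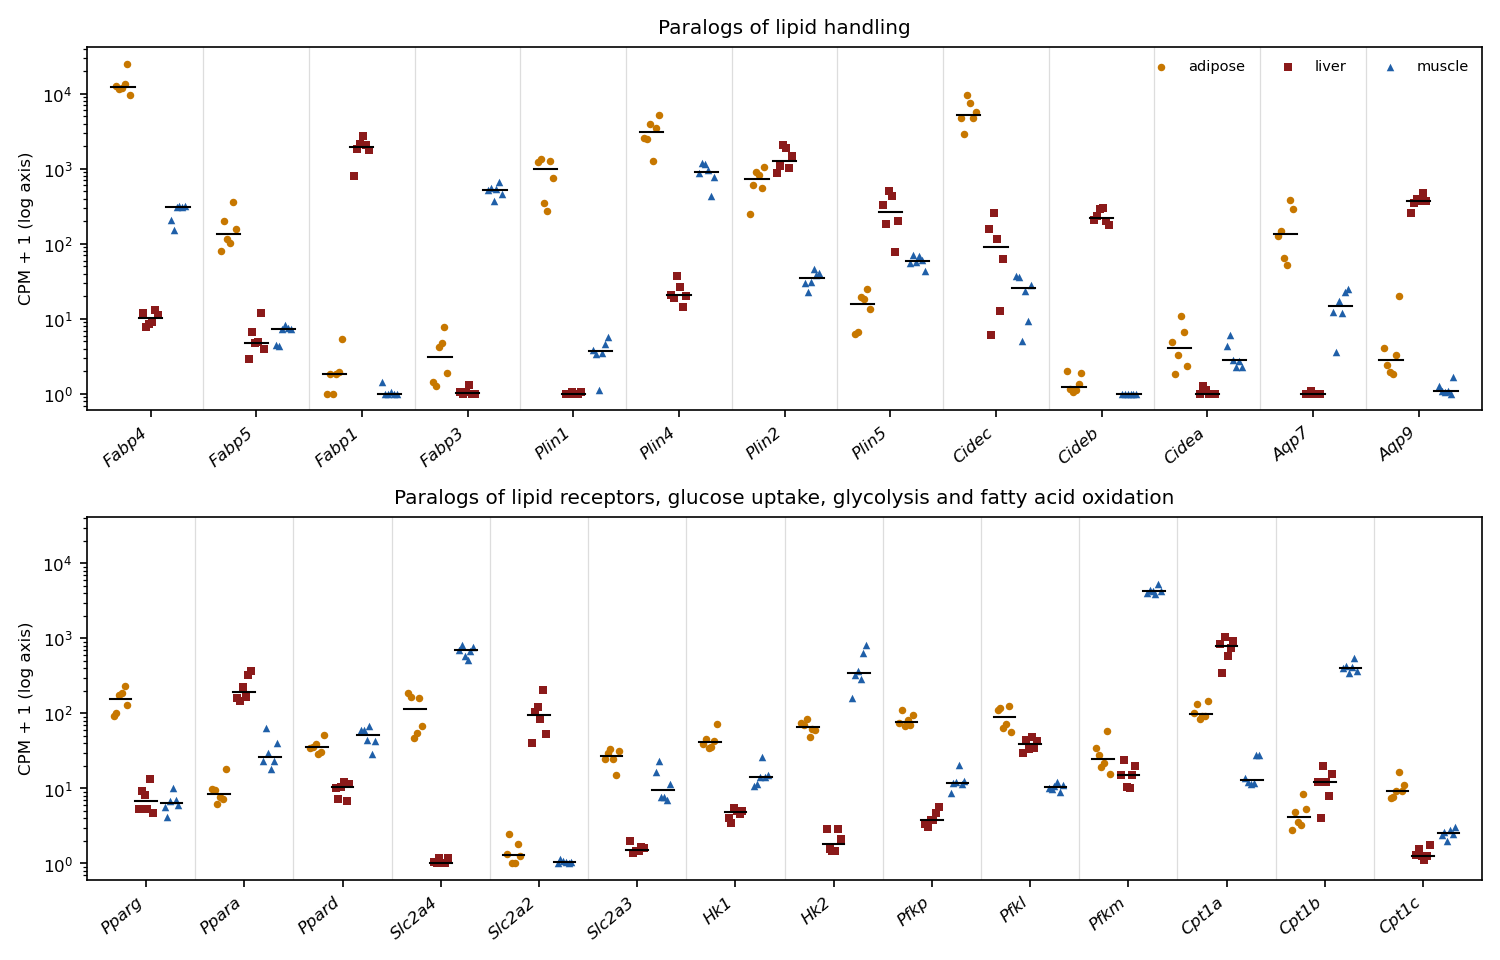
Levels of paralogous genes in each of the 18 libraries, as CPM + 1 on a log axis, with one strip per gene and points coloured by tissue. Fabp4, Cidec, Plin1 and Pparg are highest in adipose tissue, Fabp1 and Cideb in liver, and Fabp3 and Slc2a4 in muscle.

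Thermogenic genes were mostly lower in omental fat than the mean of liver and muscle. Of 16 tested, 3 (Ucp2, Kcnk3 and Letmd1) were higher and 9 lower by total reads (median -0.82), and 3 were higher and 11 lower by TMM (median -1.40). The lower genes were 56.2% and 68.8% of the list, against 13.4% and 37.8% of all genes. By TMM, 4 of the 16 (25%) were lower than in both tissues and 2 (12.5%) higher, against 15.2% and 19.3% of all genes. Taken singly by TMM, 9 were lower and 4 higher than in liver, and 9 lower and 5 higher than in muscle. Of all 14168 genes, 5148 were lower and 4829 higher than in liver, and 4646 lower and 5178 higher than in muscle. Ucp1, the proton carrier of brown fat, had 0, 0.24 and 8.82 CPM in adipose tissue and was too low to be tested. Kcnk3, a potassium channel of adipocytes, had 13, 30.1 and 64.2 CPM in adipose tissue (4.11; TMM 3.24), and Ucp2, which is also expressed by immune cells, was higher (3.34; TMM 2.23). Cox7a1, a cytochrome oxidase subunit of heart and muscle with 188, 239 and 335 CPM in muscle, was lower (-2.62; TMM -3.29). Its mean was 2.68 CPM in adipose tissue and 0.742 CPM in liver. Cpt1b, the muscle form of the transferase that admits fatty acids to mitochondria, was also lower (-3.91; TMM -4.79). Of the other forms of the transferase, Cpt1a was at -0.0035 by total reads (limma adjusted p = 0.99) and -1.1 by TMM, and Cpt1c, the brain form, was higher (2.41; TMM 1.62). Ucp3 did not pass by total reads (0.41, limma adjusted p = 0.125) and passed with a pseudocount of 0.1 (1.93, limma adjusted p = 1.73e-06), with edgeR (2.18, adjusted p = 0.000127) and with DESeq2 (2.34, adjusted p = 1.06e-05). It also passed without adipose library W5F5005 (0.58, limma adjusted p = 0.0313) or W5F5006 (0.63, limma adjusted p = 0.0121).

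Nuclear genes for the subunits of oxidative phosphorylation were mostly lower in fat than the mean of liver and muscle. Of 73 tested, 5 were higher and 42 lower by total reads (median -0.46), and 2 were higher and 70 lower by TMM (median -1.57). The 5 were Cox6a1, Cox8a, Ndufa7, Ndufc2 and Ndufv3, and the 2 were the first of these. By TMM, 59 of the 73 (80.8%) were lower than in liver and lower than in muscle, each at an adjusted p under 0.05, a state that 15.2% of all genes shared. Summed levels by total reads were 8844 to 15220 CPM in adipose tissue, 10660 to 14820 CPM in the liver libraries and 22630 to 33330 CPM in those of muscle. The medians were 13620, 11800 and 28400 CPM. On this scale adipose tissue thus overlapped liver, with a higher median than liver, and stood apart from muscle. Leaving out the Xist libraries reduced the count of lower subunits by total reads from 42 to 31, and leaving out adipose library W5F5299, which had the lowest sum, reduced it to 38. Cox8a was higher on both scales (2.31; TMM 1.2), with 276, 409 and 580.0 CPM in adipose tissue, and so was Cox6a1 (1.95; TMM 0.84). These are the forms found in tissues other than heart and muscle. Cox6a1 had means of 391 CPM in adipose tissue, 356 CPM in liver and 27.4 CPM in muscle. By TMM, 0 of the 73 subunits were higher than in liver and than in muscle. Cox6a2, the heart and muscle partner of Cox6a1, was lower (-3.53; TMM -3.97) and did not pass with edgeR (-2.22, adjusted p = 0.116). Its means were 2.46 CPM in adipose tissue, 0.0358 CPM in liver and 738 CPM in muscle.

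Transcripts of matrix genes and of fibroblast and progenitor genes were mostly higher in fat than the mean of liver and muscle. All 36 extracellular matrix genes tested were higher by total reads and 34 (94.4%) by TMM, with 0 lower on either scale (medians 4.09 and 3.0). Of all genes, 70.6% were higher by total reads and 32.6% by TMM. By TMM, 27 of the 36 (75%) were higher than in liver and than in muscle, against 19.3% of all genes. Summed levels were 15850 to 32200 CPM in adipose tissue against 1962 to 3126 CPM in the liver libraries and 2434 to 4108 CPM in those of muscle. Col3a1, a fibrillar collagen, had 696, 1551 and 3741 CPM in adipose tissue (5.52; TMM 4.43), and Sparc, a collagen-binding matricellular protein, had 1863, 3097 and 5756 CPM (4.85; TMM 3.74). None of these genes was lower on either scale. Col6a5, a chain of collagen VI, had 9.95, 106 and 441 CPM in adipose tissue (5.79; TMM 5.02), with a wide spread between libraries. Of 23 fibroblast and progenitor genes, 20 (87%) were higher and 0 lower by total reads, and 16 (69.6%) were higher and 1 (Wnt2) lower by TMM. By TMM, 11 of the 23 (47.8%) were higher than in liver and than in muscle. Fgf10, a growth factor of mesenchyme, had 24.3, 35 and 71.3 CPM in adipose tissue (5.14; TMM 4.4), Wt1, a factor of visceral progenitors and of mesothelium, differed by 4.88 (TMM 4.07), and Acta2, smooth muscle actin, by 4.64 (TMM 3.66).

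Hox genes, which keep the positional identity of mesenchyme along the body axis, separated the 3 tissues by level. Of 28 tested, 22 were higher and 2 lower by total reads (78.6% and 7.14%, median 2.33, against 70.6% and 13.4% of all genes), and 21 were higher and 3 lower by TMM (75% and 10.7%, median 1.58, against 32.6% and 37.8%). Summed levels were 317 to 436 CPM in adipose tissue, 133 to 195 in muscle and 3.46 to 6.88 in liver. No tissue overlapped another in this sum. Hoxc8 had 26.9, 90.5 and 121 CPM in adipose tissue (5.79; TMM 5.02), Hoxc6 differed by 4.49 and Hoxd8 by 3.2 (TMM 3.66 and 2.38). Hoxa13 and Hoxc11, and by TMM Hoxc10, all from the posterior end of their clusters, were lower. Hoxc11 had 3.09, 4.28 and 6.34 CPM in muscle and no read in 4 of the 6 adipose libraries (-0.99; TMM -1.16), and Hoxa13 had 1.7, 2.11 and 2.62 CPM in muscle (-0.57; TMM -0.74). Hoxa13 had the opposite sign and did not pass when recovered reads were tested with edgeR (0.18, adjusted p = 0.528), and did not pass with DESeq2 (-0.37, adjusted p = 0.69). Hoxc11 did not pass with edgeR (-0.53, adjusted p = 0.734) or DESeq2 (-1.07, adjusted p = 0.275).

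Markers of cell types were counted to describe the tissue and its admixtures. Adipocyte markers summed to 36160 to 60570 CPM in adipose tissue against 566 to 884 CPM in the liver libraries and 1287 to 2137 CPM in those of muscle, and 13 of 14 were higher on both scales, Gpd1 being the exception. Of 17 mesothelium markers, 16 were higher by total reads and 15 by TMM, with Krt18 lower by TMM (medians 4.88 and 3.99), and 15 of the 17 (88.2%) were higher than in liver and than in muscle by TMM, against 19.3% of all genes. Upk3b, a uroplakin of the mesothelium, had 63, 181 and 489 CPM in adipose tissue (6.96; TMM 6.11), Msln, mesothelin, had 48.9, 137 and 364 CPM (6.22; TMM 5.3), and Slpi, a protease inhibitor of mucosal and serous surfaces, had 63.5, 156 and 287 CPM (6.19; TMM 5.25). Upk3b had at most 1.58 CPM in liver and 0.299 CPM in muscle and would not have met the expression filter without the adipose libraries. The counts of higher markers therefore partly follow from the filter and are a description. Markers of both adipocytes and a mesothelial covering were high in the tissue labelled omental adipose. The summed mesothelial level in liver, 329 to 412 CPM, was mostly of the keratins Krt8 and Krt18, which hepatocytes also express.

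Markers of macrophages were higher in adipose tissue. All 15 macrophage markers were higher on both scales (medians 3.66 and 2.58), against 70.6% and 32.6% of all genes. They summed to 2193 to 2994 CPM against 147 to 332 in liver and 84.9 to 308 in muscle. Gpnmb, a glycoprotein of lipid-loaded macrophages, had 84, 194 and 396 CPM in adipose tissue (5.29; TMM 4.33), Cd209f, a lectin receptor, differed by 4.61 (TMM 3.78), and Trem2, a lipid receptor, had 18.4, 33.6 and 86.8 CPM (4.49; TMM 3.62). Of 8 markers of Kupffer cells, the resident macrophages of liver, 7 were lower and 1 higher than in liver by TMM, and 6 were higher than in muscle. Of all 14168 genes, 5148 were lower and 4829 higher than in liver, and 5178 were higher than in muscle. Against the mean of both, 6 Kupffer cell markers (75%) were higher and 1 lower by total reads, near the 70.6% and 13.4% of all genes. By TMM 2 (C6 and Nr1h3) were higher and 2 (Clec4f and Cd5l) lower. Clec4f, a lectin restricted to Kupffer cells, had 0 to 0.315 CPM in adipose tissue and 46 to 114 CPM in liver (-3.06; TMM -3.36); edgeR on recovered reads did not call it (-3.71, adjusted p = 0.97). Only 4 of 17 B and plasma cell markers and 6 of 17 T and NK cell markers met the expression filter, some of them, Il7r and Cd2 included, through the adipose libraries alone. For those genes a higher level in adipose tissue followed from the filter, and the values are a description. Jchain, the joining chain of secreted antibody, had 34.2, 79 and 132 CPM in adipose tissue (5.24; TMM 4.33), and Il7r, the receptor of lymphocyte survival, had 5.56, 11.5 and 15.7 CPM (3.28; TMM 2.55). Of 17 markers in each of these lists, 3 had no read in any adipose library; Ighm, Igkc, Trac, Trbc1 and Trbc2, the constant regions of antibody and of the T cell receptor, were at 0 in all 18 libraries. Of 8 markers of lymph node stroma 3 met the filter, Chst4 through the adipose libraries alone. Ccl21a, a chemokine of lymphoid stroma, had 0.752, 75.8 and 233 CPM (4.18; TMM 3.35), Chst4, a sulfotransferase of high endothelial venules, differed by 2.61 (TMM 1.98) and Cxcl13, the chemokine that attracts B cells, by 2.28 (TMM 1.27).

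The call of endothelial markers depended on the scale. By total reads 14 of 16 (87.5%) were higher, and by TMM 6 (37.5%) were, near the share of all genes (medians 1.58 and 0.49). Cldn5, the endothelial claudin, differed by 3.27 (TMM 2.21), Podxl by 2.41 and Pecam1 by 2.04 (TMM 1.36 and 0.94). Their sum, 599 to 3198 CPM in adipose tissue, overlapped that of muscle, 638 to 994. Of 9 Schwann cell and nerve markers, 5 were higher and 2 lower by total reads and 3 were higher and 3 lower by TMM. The TMM shares, 33.3% each, are near the 32.6% and 37.8% of all genes. Pmp22 and Mbp, myelin proteins, were higher (3.41 and 2.67; TMM 2.35 and 1.7). Sox10, a factor of glial cells, was lower by limma (-0.45; TMM -0.68) and had the opposite sign with edgeR (0.59). Its limma call was lost with a pseudocount of 0.1 (-0.33, limma adjusted p = 0.343) and without W5F5042 (-0.40, limma adjusted p = 0.0507).

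Markers of hepatocytes and myofibres were mostly lower in adipose tissue than the mean of liver and muscle, which includes the tissue each list marks. By TMM, all 18 hepatocyte markers were lower than in liver, and 12 were higher than in muscle. All 18 myofibre markers were lower than in muscle, and 15 were higher than in liver. Of all genes, 13.4% by total reads and 37.8% by TMM were lower than the mean. No epididymis marker met the expression filter, and without adipose library W5F5299 there were 36 adipose-low genes. Of 18 myofibre markers, 17 were lower in adipose tissue on both scales, among them Neb, which encodes the giant protein nebulin (-4.76; TMM -5.61). The other, Acta1, skeletal actin, had 11.2, 327 and 534 CPM in adipose tissue and 19610 to 32780 CPM in muscle. Hepatocyte markers were lower in 17 of 18 on both scales, among them Cps1, the entry enzyme of the urea cycle (-4.95; TMM -5.58). The other was Cyp2e1, a cytochrome P450 with 657, 4726 and 6822 CPM in adipose tissue, 4895, 7839 and 9263 CPM in liver and 2.65, 30.5 and 58.4 CPM in muscle (3.15; TMM 2.04). Alb, albumin, had 17.8, 33.1 and 87.8 CPM in adipose tissue against 53070 to 92360 CPM in liver, a share of the liver level far below that of Cyp2e1. Pancreatic acinar markers summed to 7.68 to 61 CPM in adipose tissue, and the 1 tested, Cela1, was higher (2.94; TMM 2.03). Of 4 ovary and female tract markers tested, 2 were higher and 1 lower by total reads and 1 (Star) was higher and 2 (Cyp17a1 and Ovgp1) lower by TMM.

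**Figure D4:**
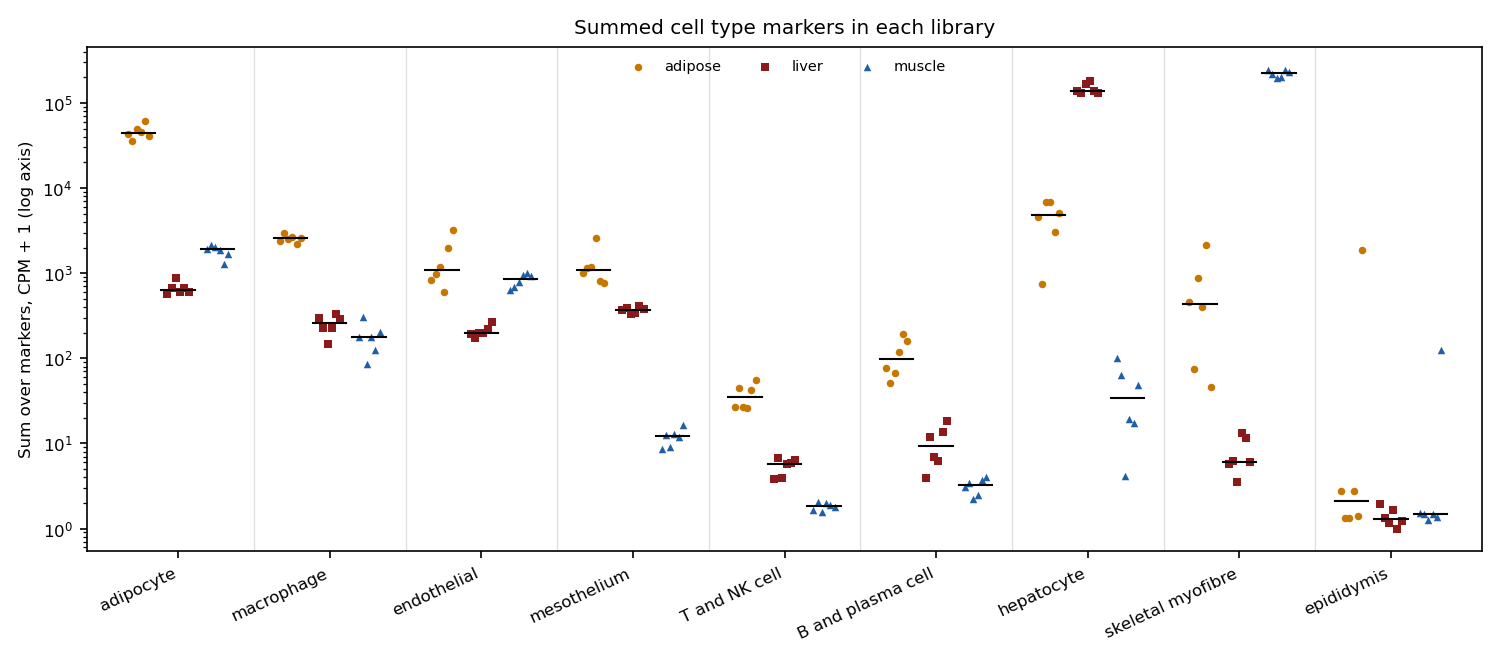
Summed CPM + 1, on a log axis, of the markers of 9 cell types in each of the 18 libraries; points are libraries, coloured by tissue. Adipocyte and macrophage sums separate adipose tissue from liver and muscle in every library, and the epididymis sum of adipose library W5F5299 (1847 CPM) stands apart from the other adipose libraries.

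Genes low in fat and high in both other tissues were few. The 6 with the largest difference among the 39 included 3 genes of membrane transport. Abcb4, which moves phosphatidylcholine across the plasma membrane, had 0.578, 1.83 and 3.71 CPM in adipose tissue, 312, 580.0 and 735 CPM in liver and 136, 224 and 259 CPM in muscle (-6.93, SE 0.25, limma adjusted p = 1.46e-14; TMM -7.71). Hjv, hemojuvelin, the co-receptor that controls hepcidin, had 0.286, 0.438 and 5.19 CPM in adipose tissue, 73.4 to 118 CPM in liver and 355 to 471 CPM in muscle (-6.63; TMM -7.27). These genes were low in every adipose library. Slc38a4 and Slc38a3, sodium-coupled transporters of neutral amino acids, had adipose medians of 2.13 and 2.67 CPM against 1256 and 826 CPM in liver and 90.7 and 95 CPM in muscle (-6.54 and -6.27; TMM -7.39 and -7.12). Csrp3, the muscle LIM protein, had 0, 0.256 and 4.5 CPM in adipose tissue and 9.25, 22.7 and 37.9 CPM in liver (-6.23; TMM -6.75), and Bdh1, a dehydrogenase of ketone bodies, had 0.688, 1.1 and 3.24 CPM in adipose tissue (-5.73; TMM -6.45). Plin5 and Fitm1, given above, were low in adipose tissue in the same comparison.

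The 6 adipose libraries were not alike in the genes that define them. In adipose tissue the 2 Xist libraries were below the other 4 for Lpl (4980 to 5420 against 8360 to 9380 CPM), Plin1 (273 to 354 against 750 to 1360), Slc2a4 (46.7 to 53.3 against 67.7 to 187), Gpd1 (35.4 to 38.8 against 152 to 737) and Hoxc8 (26.9 to 30.9 against 73.9 to 121). They were above the other 4 for Cidec (7430 to 9770 against 2950 to 5730 CPM), Lpin1 (956 to 1620 against 208 to 451), Cyp2e1 (6640 to 6820 against 657 to 4920), Wt1 (56 to 122 against 12.5 to 33.7) and Upk3b (211 to 489 against 63 to 192). Adipoq and Fabp4 did not separate them. With 2 libraries on one side no test was made, and the part of sex, of mesothelial admixture or of shared handling was not tested. Over all adipose libraries, Fasn reached its highest levels in W5F5005 and W5F5006 and was at 318 to 667 CPM in the other 4. Lep was lowest in 2 libraries of different kind, W5F5042 at 44.9 CPM and W5F5299 at 30.3 CPM. Dgat2 covered 21 to 1350 CPM. By contrast, Adipoq covered 2410 to 4350 CPM. The order of the libraries thus differed between the storage genes. Of the 1429 adipose-high genes, 1275 were called again without the Xist libraries.

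**Figure D5:**
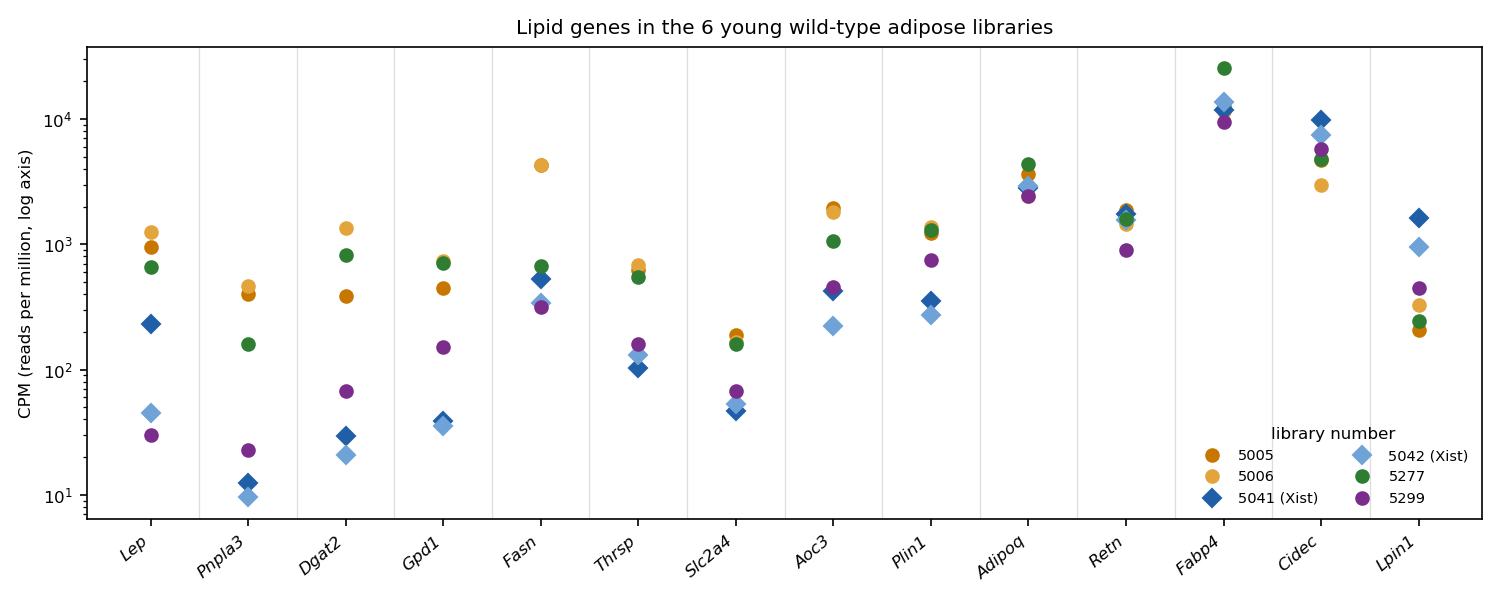
Levels of 14 lipid genes in the 6 adipose libraries, in CPM on a log axis; diamonds mark the 2 libraries with Xist, circles the other 4, and the genes shown were chosen after their values were seen. Dgat2, Gpd1, Pnpla3 and Slc2a4 are low in both Xist libraries, Cidec and Lpin1 are high there, and Adipoq spans 2410 to 4350 CPM.

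Myc, the gene removed in the other arm of the series, had 16.5, 28.5 and 34 CPM in adipose tissue, 3.84, 13.6 and 24.8 CPM in liver and 5.29, 15.8 and 62.8 CPM in muscle. The adipose level overlapped both tissues, and the difference was 0.79 by total reads (SE 0.39, limma adjusted p = 0.0659) and -0.26 by TMM (limma adjusted p = 0.577). It passed without the Xist libraries (0.98, limma adjusted p = 0.0447), without the muscle library W5S5042 alone (0.97, limma adjusted p = 0.0117) and without the liver library W5L5299 alone (0.90, limma adjusted p = 0.0372).

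The same comparison was made in the other arms of the series, which share no library with it. In WT mice of 20 months, 1956 of 14688 genes (13.3%) were adipose-high; 1218 genes were on both lists, 85.2% of the 1429 and 62.3% of the 1956. In Myc-inactivated mice of 5 months, 1458 of 15071 genes (9.67%) were adipose-high and 1153 were on both lists, 80.7% of the 1429 and 79.1% of the 1458. At 20 months, 1690 of 14652 (11.5%) were adipose-high in these mice and 1163 were on both lists, 81.4% and 68.8%. Of the 1429 genes, 1423, 1428 and 1424 were tested in these arms, and 1419, 1425 and 1420 were again called higher than liver and higher than muscle. These calls are by total reads, on which the median gene was 0.86, 0.94 and 0.77 higher in adipose tissue there. The share of all genes called higher than both tissues was not counted in these arms. Of the 39 adipose-low genes, 32, 25 and 33 were adipose-low again. Leading genes kept their direction in all 3 arms: Cfd was at 8.61, 10.02 and 8.17, Adipoq at 9.85, 9.09 and 9.42, and Abcb4 at -5.04, -7.32 and -4.92.

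The signed difference between fat and the mean of the other tissues changed with age for a share of genes. In WT mice it rose from 5 to 20 months in 1181 of 15474 genes (7.63%) and fell in 1400 (9.05%), by the limma test of the difference between the contrasts. A fall is not always a smaller distance: the contrast of Cyp2f2 went from 0.02 to -3.39. Sfrp5, a secreted Wnt inhibitor, rose in adipose tissue from 1.71, 58.7 and 184 CPM to 534, 642 and 805 CPM, and its contrast rose by 4.97 (limma adjusted p = 0.000181). Ccn5, a matricellular protein, went from 3.47, 27 and 48 CPM to 262, 363 and 731 CPM, a change of 4.06 in the contrast. Slc5a7, the high-affinity choline transporter, went from 0, 0.342 and 2.69 CPM to 45.9, 89.3 and 134 CPM, a change of 5.64 by limma (adjusted p = 2.19e-14); it did not pass with edgeR on recovered reads (adjusted p = 0.9999), and liver had no read at either age. In these 3 genes every old adipose library was above every young one. Cyp2f2, a cytochrome P450, fell from 15.7, 47.8 and 274 CPM to 1.38, 3.43 and 6.20 CPM (-3.41, limma adjusted p = 0.00225). The contrast of Car3, carbonic anhydrase 3, fell by 2.98 (limma adjusted p = 0.0362), and did not pass without the Xist libraries (0.0909) or with edgeR (0.198); in liver Car3 went from 5.21 to 899 CPM at 5 months to 484 to 2989 CPM at 20 months. In each tissue, 2 of the 6 young WT libraries carried Xist. None of the WT 20-month libraries did, so the mix of sexes differed between the ages compared. Without the Xist libraries, 743 contrasts rose and 893 fell with age, and edgeR called 604 and 841.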

How the data were processed

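Poly(A)-selected RNA of omental adipose tissue, liver and skeletal muscle was sequenced on Illumina instruments, per the labels' protocols, and GRCm38.p6 (mm10) is the build in the submitters' processing notes. The aligner and the gene counter are not given in the sources used here. The authors deposited 1 table of 36332 gene IDs over 64 libraries whose header calls the values CPM. Columns of the WT 5-month libraries summed to 600400 to 1640000 and not to 1000000, so the deposited values were treated as a signal, proportional to reads with a factor per library. Dividing each column by the value of 1 read gave whole reads for 100% of values within 0.05; these reads, summed per library, are the depths given. Each column was rescaled to a sum of 1000000. Gene IDs were matched to RefSeq symbols (35336 of 36332; the rest held 0.155% of reads).

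limma 3.58.1 (R 4.3.3, trend, Benjamini-Hochberg over all tested genes) was fitted to log2(CPM + 1) of the 18 libraries with tissue as the only term, for genes above 1 CPM in at least 6 libraries. Alternatives were TMM scaling, the columns as deposited, a pseudocount of 0.1, a filter of 5 CPM or none, each library left out, a replicate block, and the recovered reads in edgeR 4.0.16 (quasi-likelihood; 4898 higher and 4718 lower) and DESeq2 1.42.0. Only the limma fit by total reads was tested on simulated reads, in which all tissues shared the same means apart from genes changed in adipose tissue. That simulation did not imitate the difference in library composition between the tissues. Named genes were the 10 adipose-high and 6 adipose-low genes with the largest differences (adipose mean of at least 20 CPM, or liver and muscle means of at least 20 CPM; groups not overlapping), in each gene list the 3 called genes with the largest difference and up to 2 called in the other direction, every tested member of the paralog families, Myc, and the 3 largest rises and falls with age; some of these results are not reported here. The comparison, the gene lists and the rules were chosen with earlier results of these data known. The age comparison tested the difference of the 2 contrasts in 1 limma fit over WT libraries of both ages, for genes above 1 CPM in at least 5 libraries. Numbers in the library names were not used as pairs: 14 same-numbered pairs of libraries had correlations of their deviations of -0.08 to 0.32, and 11 were over 0.1.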

Additional observations from a re-analysis of the deposited data

Results flagged for a closer look

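In each group of 6 libraries, the highest or lowest value was set against the rest of its group by Dixon's rule, over 129 groups; 16 stood apart, and chance flags about 1 in 20 groups. In adipose tissue, library W5F5277 was the high one for the summed level of lipid uptake and triglyceride synthesis genes (55200 CPM), for Fabp4 (25300 CPM) and for Csrp3 (4.50 CPM). Adipose library W5F5299 was the low one for the summed oxidative phosphorylation subunits (8840 CPM) and for Retn (895 CPM), and the high one for epididymis and male tract markers (1850 CPM) and Slc38a4 (16.0 CPM). Adipose library W5F5042 was the high one for mesothelium markers (2620 CPM), and adipose library W5F5006 the low one for hepatocyte markers (751 CPM), a sum that in adipose tissue was mostly Cyp2e1.

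In liver, library W5L5005 was the low one for the extracellular matrix sum (1960 CPM) and Abcb4 (312 CPM) and the high one for pancreatic acinar markers (22.4 CPM) and Cfd (0.0549 CPM, which is 1 read). In muscle, library W5S5299 was the high one for epididymis and male tract markers (122 CPM), and library W5S5041 the low one for Adipoq (1.17 CPM) and Plin1 (0.129 CPM).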

How the results depend on the processing

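The counts and the sign of some small differences changed with the scale and the tool; DESeq2 and edgeR change the scale and the model at once. Against the mean of liver and muscle, 5179 genes were higher and 4898 lower with DESeq2, 4619 and 5362 with TMM, 5062 and 4860 with the columns as deposited, and 4898 and 4718 with edgeR (limma by total reads gave 10008 and 1894). Against liver alone these were 5242 and 5000, 4829 and 5148, 5185 and 4749, and 4900 and 5170; against muscle alone 5529 and 4548, 5178 and 4646, 5596 and 4228, and 5316 and 4555. Adipose-high genes numbered 454 with TMM, 531 as deposited and 907 with edgeR. Adipose-low genes numbered 177 with DESeq2, 110 with TMM, 97 as deposited, 181 with edgeR and 60 with a pseudocount of 0.1. The contrasts that rose with age numbered 604 with edgeR, 718 with a pseudocount of 0.1 and 743 without the Xist libraries, and those that fell 909 with TMM, 841 with edgeR and 893 without the Xist libraries. With a pseudocount of 0.1, 1759 adipose-high genes were shared with the Myc-inactivated mice of 5 months.

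Of 142 named-gene results, 104 kept their side of the threshold in all settings and had no counted change of sign, and 9 had one in at least 1. A change of sign was counted only where the main fit or the alternative passed the threshold. Changes of sign between values that did not pass, such as those of Myc and Dgat2 by TMM, are not among the 9. With DESeq2, TMM, the deposited columns and edgeR, in that order, Slc2a1 was at -1.01, -0.98, -0.89 and -1.06, Plin3 at -0.55, -0.56, -0.45 and -0.59, Acacb at -0.95, -1.11, -1.0 and -1.01, and Pkm at -0.52, -0.62, -0.51 and -0.56. Ppard was at -0.31, -0.32, -0.22 and -0.36, and Lpin3 at -0.25, -0.23, -0.14 and -0.30. Slc2a8 was at -0.0473 with TMM, Sox10 at 0.0574 with DESeq2 and 0.59 with edgeR, and Hoxa13 at 0.18 with edgeR; Sox10 and Hoxa13 kept their sign with TMM.

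Leaving out 1 library at a time gave 9813 to 10026 higher and 1826 to 1912 lower genes against the mean, 9915 to 10114 and 1690 to 1733 against liver, 8913 to 9139 and 1994 to 2086 against muscle, 1393 to 1473 adipose-high and 31 to 39 adipose-low genes. Contrasts that rose with age numbered 882 (without WT 20-month adipose library 22) to 1622 (without WT 5-month adipose library W5F5299), and those that fell 979 (without WT 20-month adipose library 25) to 1768 (without WT 20-month muscle library 41).

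With the library number as a replicate block, 9876 genes were higher and 1856 lower, and 1386 were adipose-high, 1308 of them shared with the fit without it. Under the block Myc (0.82, adjusted p = 0.0231) and Ucp3 (0.72, adjusted p = 0.00452) passed, and Slc2a5 (-0.33, adjusted p = 0.125) and Pkm (0.36, adjusted p = 0.0684) did not, all by limma. Of 16 libraries with a same-numbered partner, 10 correlated best with it (median r 0.16 for 14 same-numbered pairs, -0.05 for 94 others), a hint from the data and not from the design. The cause of the changes between scales was not tested. At these depths, genes near 1 CPM rest on about 15 to 21 reads per library, and a gene without a read in 6 libraries is known only to lie below the floor of 3 reads.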
